A study of Homo sapiens with 12 samples.

Results

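The histone genes are the 71 rows of a table of 16271 genes, counted in HaCaT cells, whose deposited symbol begins with HIST and a digit. Of them, 6 are named for the linker histone H1, 17 for H2A, 22 for H2B, 13 for H3 and 13 for H4. By cluster, 55 belong to HIST1, 13 to HIST2, 2 to HIST3 and 1 to HIST4, and 7 of the 71 are annotated pseudogenes. A filter on low counts left 66 histone genes to test, and HIST1H2BA, HIST1H4K, HIST2H2BB, HIST2H2BC and HIST2H2BD were set aside.

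HaCaT is an immortalised human keratinocyte line. Sequencing libraries of total RNA were made from VDR KO cells, which are labelled as lacking the vitamin D receptor gene, and from wild-type (WT) cells, each with and without 8 h of 1,25(OH)2D3, the active hormone of vitamin D and the ligand of that receptor. The 4 groups were treated KO, untreated KO, treated WT and untreated WT, with 3 libraries each. All groups grew in DMEM with fetal bovine serum, the treated cells as 3 replicates in a 6-well plate, so the p-values measure the spread between libraries that may share a plate. How the receptor gene was inactivated, the number of KO clones, the hormone dose and the vehicle are not stated in the labels. A difference between 1 KO line and its parent cannot be told apart from a difference between clones.

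Histones are the proteins around which DNA is wound. H2A, H2B, H3 and H4 form the core of the nucleosome, and H1 binds the DNA between nucleosomes. Most histone genes lie in clusters, are transcribed during S phase together with DNA replication under the coactivator NPAT, and make mRNAs that end in a conserved stem-loop in place of a poly(A) tail. The stem-loop is bound by SLBP, which serves the cutting, translation and decay of these mRNAs. Some of the genes also make polyadenylated transcripts, and dividing cells in general hold far more histone mRNA than resting ones.

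The HIST1 genes lie on chromosome 6 (GRCh38, GENCODE v29) in 4 runs parted by gaps over 200 kb. HIST1H2BA stands alone at chr6:25726777-25727292, 32 genes from HIST1H1A to HIST1H4H fill chr6:26017085-26285638, 5 from HIST1H2BJ to HIST1H2AH fill chr6:27125897-27147515, and 17 from HIST1H2BL to HIST1H2BO fill chr6:27807444-27893843. Among the genes described most often below, HIST1H4H spans chr6:26277609-26285638 on the minus strand, HIST1H4C chr6:26103876-26104310 on the plus strand and HIST1H2BK chr6:27146418-27146798 on the minus strand, and all 3 are protein-coding. HIST2H2BF had the same counts as the row RP11-196G18.21 and HIST1H2AH the same as MIR3143, so these reads cannot be assigned to 1 of the paired rows. No histone row equalled another histone row.

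The 3′ stem-loop was searched in the GENCODE transcripts with a 16-base pattern of the histone stem-loop. It was found in the transcripts of 31 of the 71 histone genes and of 1008 of 58605 other genes (1.72%). The other 40 histone genes had no match in the annotated transcripts, many of which stop at the coding end. The sequences below belong to genes described further on and show some of the forms found in H4, H2B, H3 and H2A genes. Other forms, not shown, were found in H2A, H2B and H3 genes such as HIST1H2AG, HIST1H2BD and HIST1H3G. The matched 16 bases are in capitals with up to 5 neighbouring bases on each side, given for the transcribed strand.

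HIST1H4H: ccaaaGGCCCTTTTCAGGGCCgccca
HIST1H4I: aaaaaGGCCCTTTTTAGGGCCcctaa
HIST4H4: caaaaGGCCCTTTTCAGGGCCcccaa
HIST1H2BE: ccaaaGGCTCTTTTCAGAGCCa
HIST1H2BG: tcaaaGGCTCTTTTCAGAGCCactca
HIST1H3H: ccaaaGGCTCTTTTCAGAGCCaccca
HIST1H3E: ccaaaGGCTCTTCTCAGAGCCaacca
HIST3H2A: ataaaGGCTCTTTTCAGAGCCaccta

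These lie at chr6:26285126-26285151 (minus strand), chr6:27139649-27139674 (plus strand), chr12:14770719-14770744 (minus strand), chr6:26184205-26184226 (plus strand), chr6:26216213-26216238 (minus strand), chr6:27810511-27810536 (plus strand), chr6:26225591-26225616 (plus strand) and chr1:228457364-228457389 (minus strand), in the order printed. The commonest form, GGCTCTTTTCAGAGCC, was found in 16 genes, none of them an H4 gene. The H4 genes carried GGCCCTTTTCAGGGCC, in 5 genes, or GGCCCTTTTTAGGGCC, in 2 genes. HIST1H3E, which showed one of the widest gaps between genotypes, was the 1 gene with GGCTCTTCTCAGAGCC.

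Promoters were read from RefSeq (GRCh38.p14), which held 54 of the 71 histone genes. Over the 250 bases before the start, on either strand, CCAAT was found in 46 of 54 histone promoters and in 32.0% of all 35116 promoters of this length. TATAAA was found in 36 of 54, against 10.7% of all promoters. The octamer ATTTGCAT was found in 19 of 54, against 1.63% of all, and these were 10 of 15 H2A and 9 of 13 H2B promoters. CCAAT stood in all of the 5 H1, 15 H2A, 13 H2B and 10 H3 promoters and in 3 of 11 H4 promoters. Neighbouring genes on opposite strands can share most of this window, as HIST1H2BJ and HIST1H2AG do. A match in a shared stretch was counted for both genes, so these counts are not of separate promoters only. The promoters of HIST1H2BJ and HIST1H2BK, 2 of the H2B genes that fell with the hormone, and of HIST1H4H are shown with matches to these 3 motifs or to their reverse complements in capitals, where neighbouring matches run together.

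HIST1H2BJ: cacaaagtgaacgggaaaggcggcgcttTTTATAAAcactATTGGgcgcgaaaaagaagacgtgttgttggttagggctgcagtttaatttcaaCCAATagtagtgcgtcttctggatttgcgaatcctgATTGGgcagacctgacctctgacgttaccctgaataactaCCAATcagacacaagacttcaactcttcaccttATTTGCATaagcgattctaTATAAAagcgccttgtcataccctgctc
HIST1H2BK: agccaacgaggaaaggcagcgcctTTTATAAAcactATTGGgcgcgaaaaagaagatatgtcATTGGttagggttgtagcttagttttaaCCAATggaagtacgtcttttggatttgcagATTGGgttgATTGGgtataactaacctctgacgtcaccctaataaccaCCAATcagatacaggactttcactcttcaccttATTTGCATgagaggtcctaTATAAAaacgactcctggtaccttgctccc
HIST1H4H: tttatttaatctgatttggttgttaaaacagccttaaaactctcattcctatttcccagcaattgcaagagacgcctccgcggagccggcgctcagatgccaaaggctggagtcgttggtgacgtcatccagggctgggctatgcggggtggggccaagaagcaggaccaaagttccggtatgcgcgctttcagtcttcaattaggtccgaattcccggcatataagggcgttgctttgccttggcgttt

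They span chr6:27132796-27133045 (minus strand), chr6:27146856-27147105 (minus strand) and chr6:26285535-26285784 (minus strand), in the order printed. HIST1H2BJ and HIST1H2BK each held ATTTGCAT 1 time and TATAAA 3 times, counting both strands and overlaps, and CCAAT 4 and 6 times. None of the 3 motifs was found in the HIST1H4H window, which says only that these letters are not in it. A match is a description of the letters and not of a bound site.

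The libraries held 11.49 to 15.99 M counts. CYP24A1, a classical target of the hormone, averaged 1676 CPM in treated WT and 48.0 CPM in untreated WT cells, and 12.2 CPM in treated KO and 16.9 CPM in untreated KO cells, where CPM are counts per 1e6 counts after TMM scaling. VDR transcripts were still counted in KO cells, lower in untreated KO than in untreated WT cells (log2 -0.41 ± 0.07, adjusted p = 5.03e-05) but higher in treated KO than in treated WT cells (0.22 ± 0.07, adjusted p = 0.00796), so RNA counts of the targeted gene do not check the KO label. All 12 keratinocyte markers were counted, and their summed level was 2046 to 2249 CPM in treated KO, 2161 to 2239 CPM in untreated KO, 5161 to 5303 CPM in treated WT and 4920 to 6034 CPM in untreated WT libraries. Of 15 markers of fibroblasts, endothelium, leukocytes and melanocytes, 6 had a row in the table and summed to 10.6 to 15.1, 14 to 16, 25.7 to 35.8 and 18.5 to 31 CPM in the same order of groups. The part of these differences in the histone results was not tested. How RNA was selected is not stated, and in poly(A)-selected RNA histone levels and folds would reflect the polyadenylated or partly captured transcripts only. Replicate 3 of untreated WT had the lowest summed level of that group in each of the 5 histone classes.

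Of the histone rows, 8 jumped by more than 10-fold between replicates of the same group and had at least 50 counts at the top, a description made after their values were seen. They are HIST2H2AA3, HIST2H2AA4, HIST2H2BC, HIST2H3A, HIST2H3PS2, HIST2H3DP1, HIST2H4A and HIST1H4K. HIST2H2AA4 had 2305, 4907 and 27 counts in treated KO, 34, 29 and 23 in untreated KO, 13, 18 and 10 in treated WT, and 26, 29 and 18 in untreated WT libraries. HIST2H4A had 11, 599 and 1081 counts in treated KO, 6, 7 and 23 in untreated KO, 5, 0 and 2 in treated WT, and 7, 870 and 3 in untreated WT libraries. Which libraries were high differed from row to row, and each high library stood beside a low replicate of its own group. Measured on the annotated transcripts, 5 of the 8 rows had no 50-base stretch of their own and none had over 90% of such stretches unique, whereas 46 of the other 63 histone genes had over 90% unique. Of the other 63, 2 had no stretch of their own (HIST1H3D and HIST1H2AK) and kept steady. Shared sequence leaves the assignment of these reads uncertain, its part in the jumps was not tested, and 6 of the 8 rows were among the 66 tested. The rows are listed with their values here and are left out of the plots of fold change.

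**Figure D1:**
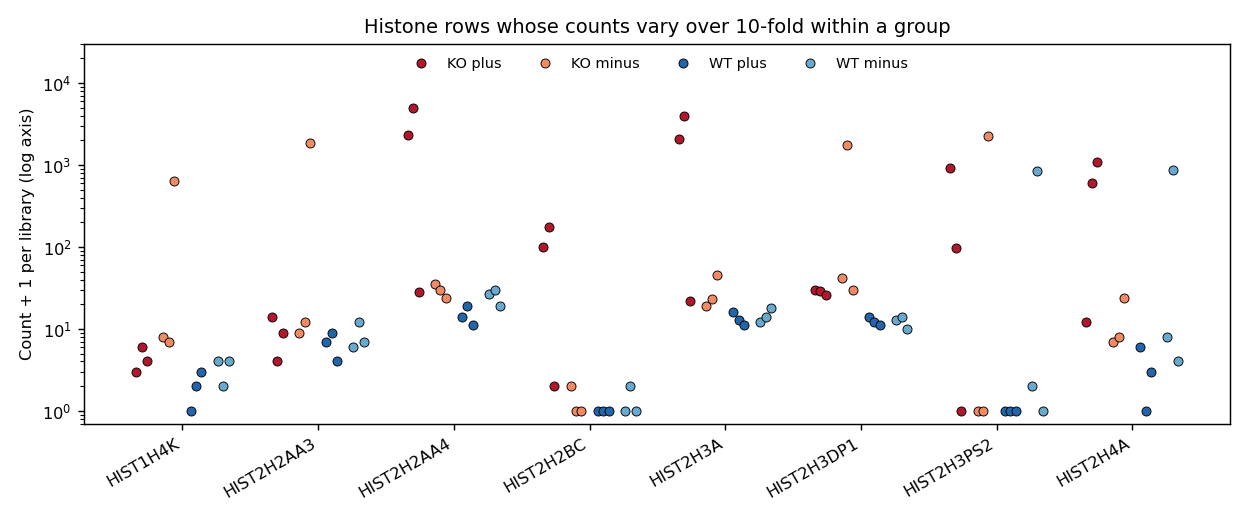
Counts in each library (log axis of count + 1) of the histone rows that jumped by more than 10-fold between replicates of a group; the groups run from treated KO on the left through untreated KO and treated WT to untreated WT on the right. High points differ from row to row, such as 1863 counts of HIST2H2AA3 in 1 untreated KO library, where the other 11 libraries held 3 to 13.

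In WT cells the histone genes fell with the hormone as a group. After 8 h, 54 of 66 tested histone genes passed the test as lower in treated than in untreated WT cells and 0 as higher (edgeR's quasi-likelihood test, Benjamini-Hochberg adjusted p under 0.05 over all 14676 genes tested). The background was 13% of all genes lower and 11.5% higher, against 81.8% of the histone genes lower. At an unadjusted p under 0.05, 57 were lower and 0 higher, DESeq2 gave 55 lower and 0 higher, and limma 54 lower and 0 higher. The median log2 fold change was -0.63 over the histone genes and -0.005 over all genes. In 53 histone genes every treated library lay below every untreated one, which held for 19.4% of all genes. In 0 histone genes every treated library lay above, against 19.9% of all genes. In total RNA of whole cultures, fewer cells with histone mRNA and less histone mRNA per cell cannot be told apart.

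Summed over all 71 rows, histone counts made 7254, 7202 and 6755 CPM in treated WT libraries, against 11490, 11372 and 9968 CPM in untreated WT libraries. The sum fell by 35.4%, and the groups did not overlap. By class, the sum differed by -25.6% for H1, -30.4% for H2A, -34.8% for H2B, -38.6% for H3 and -42.5% for H4. The H1 sums were 670, 666 and 636 CPM in treated WT, against 956, 928 and 766 CPM in untreated WT libraries. The H4 sums were 1323, 1278 and 1250 CPM in treated WT, against 2223, 2376 and 2096 CPM in untreated WT libraries. No class overlapped between the groups, and the smallest p that an exact two-sided permutation test of 3 against 3 libraries can give is 0.1. The order of the classes was not tested.

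**Figure D2:**
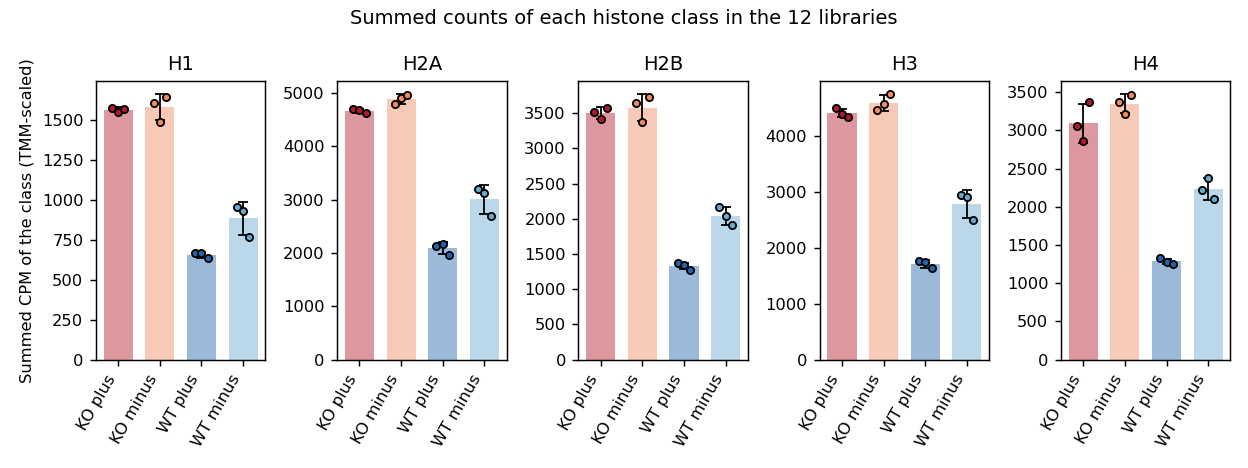
Summed level of each histone class (CPM) in the 12 libraries, 1 point a library, with treated KO, untreated KO, treated WT and untreated WT from left to right in each panel (plus is treated, minus untreated), bars for the mean and error bars for the SD over 3 libraries. In each class the 3 treated WT libraries lie lowest and the 6 KO libraries highest.

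Of the H4 genes, 9 of 12 tested fell, with a class median of -0.77 log2 units. HIST1H4H had 297, 288 and 292 CPM in treated WT, against 521, 558 and 534 CPM in untreated WT libraries. The groups lay far apart, and the difference was -0.88 ± 0.07 (log2, SE, adjusted p = 1.58e-06 by edgeR's quasi-likelihood test with Benjamini-Hochberg adjustment, as for all adjusted p below). HIST1H4I had 90.1, 78.0 and 82.8 CPM in treated WT, against 170, 174 and 159 CPM in untreated WT libraries. Treated libraries held 0.499 of the untreated level (adjusted p = 1.58e-06), again without overlap. HIST1H4C had 122, 124 and 123 CPM in treated WT, against 222, 217 and 197 CPM in untreated WT libraries, a difference of -0.79 ± 0.07 (adjusted p = 5.65e-06). HIST1H4B followed at -0.86 ± 0.08 (adjusted p = 5.85e-06). HIST1H4L, at -0.35 ± 0.08 (adjusted p = 0.00379), was the H4 gene that fell least among those that passed.

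Of the H2B genes, 17 of 18 tested fell (median -0.62). HIST1H2BE had 25.2, 23.3 and 20.4 CPM in treated WT, against 46.8, 44.3 and 47.2 CPM in untreated WT libraries, the lowest fold change of any H2B gene at -1.01 ± 0.10 (adjusted p = 6e-06). HIST1H2BJ had 87.5, 85.9 and 86.4 CPM in treated WT, against 159, 155 and 157 CPM in untreated WT libraries. Its replicates lay within a few CPM of each other, and the difference was -0.86 ± 0.07 (adjusted p = 1.58e-06). HIST1H2BK had 82.6, 83.6 and 76.5 CPM in treated WT, against 165, 138 and 124 CPM in untreated WT libraries. The untreated libraries were more spread than the treated ones but all higher, at -0.82 ± 0.10 (adjusted p = 6.27e-05), and as 25.9% of the 50-base stretches of HIST1H2BK were unique, some reads may belong to HIST1H2BE or another copy. HIST1H2BG changed by -0.89 ± 0.09 (adjusted p = 6.56e-06). HIST2H2BF, the H2B row with the most counts, had 258, 249 and 241 CPM in treated WT, against 397, 362 and 370 CPM in untreated WT libraries, a difference of -0.59 ± 0.07 (adjusted p = 3.43e-05).

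Of the H3 genes, 9 of 13 tested fell (median -0.68), and 3 of the other 4 were among the rows that jumped between replicates. HIST1H3J, the H3 gene with the most counts, had 356, 336 and 320 CPM in treated WT, against 562, 500 and 480 CPM in untreated WT libraries, a difference of -0.61 ± 0.08 (adjusted p = 7.74e-05). As 37.2% of the 50-base stretches of HIST1H3J were unique, some of its reads may belong to the H2A gene HIST1H2AM or another copy. HIST1H3H changed by -0.82 ± 0.08 (adjusted p = 6.56e-06). Of the H2A genes, 14 of 17 tested fell (median -0.54). HIST1H2AI had 106, 104 and 99.1 CPM in treated WT, against 180, 174 and 163 CPM in untreated WT libraries. Treated libraries were lower throughout, at -0.74 ± 0.07 (adjusted p = 5.13e-06), with 37.7% of its 50-base stretches unique. HIST1H2AL, the H2A gene with the most counts, had 285, 304 and 282 CPM in treated WT, against 437, 400 and 338 CPM in untreated WT libraries, a difference of -0.43 ± 0.09 (adjusted p = 0.00186).

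Of the H1 genes, 5 of 6 tested fell (median -0.38). HIST1H1C, the H1 gene with the most counts, had 286, 299 and 289 CPM in treated WT, against 438, 409 and 330 CPM in untreated WT libraries. The lowest untreated library still lay above the highest treated one, and the difference was -0.43 ± 0.09 (adjusted p = 0.00322). HIST1H1E fell by 0.33 ± 0.10 log2 units (adjusted p = 0.0195), with 157, 132 and 140 CPM in treated WT, against 195, 191 and 153 CPM in untreated WT libraries, where the groups overlapped. By cluster, 47 of 53 tested HIST1 genes fell (median -0.64), 4 of 10 HIST2 genes (median -0.57), both HIST3 genes and HIST4H4. The 6 HIST2 genes that did not pass were all rows that jumped between replicates. Within HIST1, 28 of 32 genes of the first large run fell (median -0.67), 5 of 5 of the run from HIST1H2BJ to HIST1H2AH (median -0.82) and 14 of 16 of the last run (median -0.53). Among 9 histone genes known for polyadenylated transcripts, all 9 fell, with a median of -0.49. Of the other genes that kept steady between replicates, 45 of 51 fell (median -0.64). The 12 tested genes that did not pass were 6 that jumped between replicates and HIST1H3E, HIST1H4J, HIST1H4F, HIST1H1PS1, HIST1H2BPS2 and HIST1H2APS4, all at low counts.

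**Figure D3:**
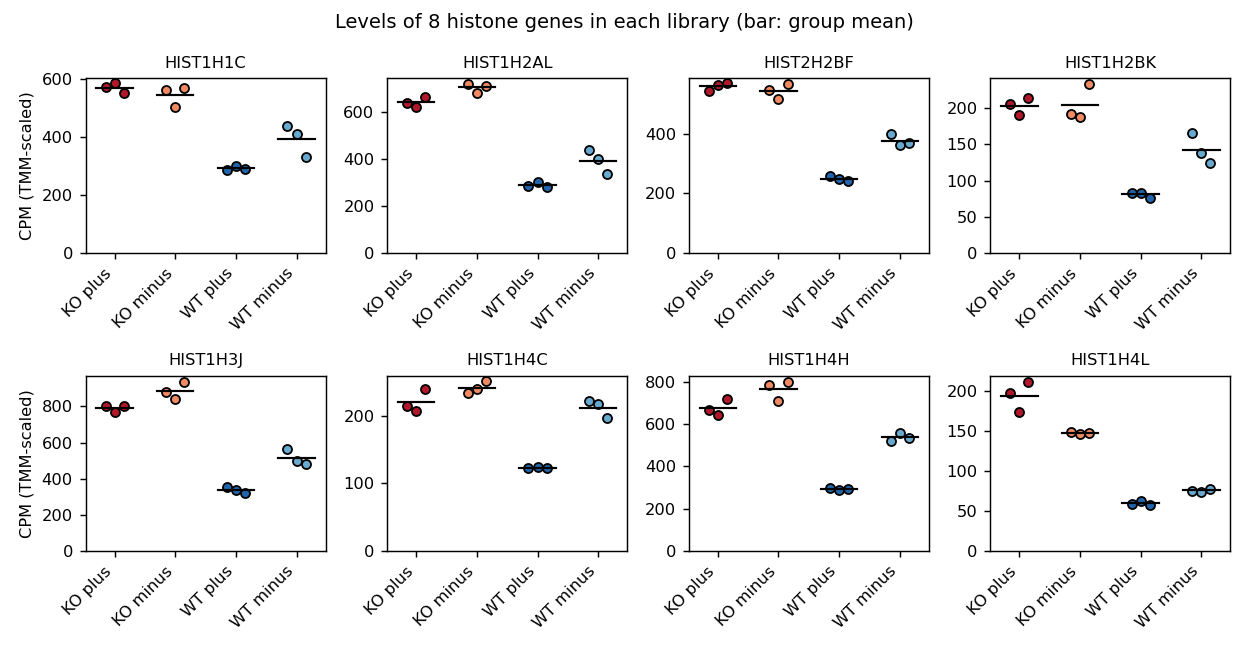
Level (CPM) in each library of 8 histone genes, with treated KO, untreated KO, treated WT and untreated WT from left to right, points for libraries and bars for means. In HIST1H4H the treated WT libraries sit between 288 and 297 CPM and the 6 KO libraries between 644 and 802 CPM.

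In KO cells the same treatment left nearly all histone genes short of the threshold. Of 66 tested, 1 passed as higher and 2 as lower in treated than in untreated KO cells, against 0.913% higher and 1.64% lower of all genes. The median log2 fold change was -0.07 over the histone genes and -0.004 over all genes. At an unadjusted p under 0.05, 6 were higher and 11 lower, DESeq2 gave 4 higher and 3 lower, and limma 1 higher and 2 lower. In 16 of the 66 histone genes every treated library lay below every untreated one and in 3 of the 66 above, against 15.9% and 15.7% of all genes. More histone genes thus lay apart below than above.

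Summed histone counts were 17334, 16897 and 17471 CPM in treated KO, against 17868, 17557 and 18549 CPM in untreated KO libraries, a difference of -4.21%. The groups did not overlap, though the highest treated library lay just under the lowest untreated one. The difference was -0.954% for H1, -4.57% for H2A, -2.21% for H2B, -3.99% for H3 and -7.66% for H4. Without the rows that jumped between replicates, a choice made after seeing the data, the difference was -7.78% for H2A, -6.23% for H3 and -5.87% for all classes together.

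The gene that passed as higher was HIST1H4L, with 198, 174 and 211 CPM in treated KO, against 149, 146 and 148 CPM in untreated KO libraries. All treated libraries lay above the untreated ones, at 0.39 ± 0.07 (log2, SE, adjusted p = 0.0148), whereas in WT cells this H4 gene was lower with the hormone. HIST3H2A, an H2A gene outside the large clusters, had 78.5, 68.5 and 69.9 CPM in treated KO, against 90.9, 96.4 and 94.9 CPM in untreated KO libraries, a difference of -0.38 ± 0.07 (adjusted p = 0.0159). HIST4H4, the lone HIST4 gene, had 143, 142 and 159 CPM in treated KO, against 186, 177 and 194 CPM in untreated KO libraries, a difference of -0.33 ± 0.08 (adjusted p = 0.0403). In both genes the treated libraries were lower without overlap. The 3 calls depended on single libraries. Without replicate 1 of untreated KO 0 passed, without replicate 3 of untreated KO HIST1H4L alone, without replicate 1 of treated KO HIST3H2A alone and without replicate 2 of treated KO HIST1H4L alone. Without replicate 3 of treated KO none of them passed, and HIST2H2AA4, HIST2H2BC and HIST2H3A passed as higher, which are among the rows that jumped between replicates.

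Of the genes that passed in WT cells, the 3 with the lowest fold changes did not pass in KO cells, where HIST1H2BE differed by -0.04 ± 0.09 (adjusted p = 0.843), HIST1H4I by -0.20 ± 0.08 (adjusted p = 0.154) and HIST1H2BG by -0.09 ± 0.08 (adjusted p = 0.547). HIST1H4H had 666, 644 and 719 CPM in treated KO, against 785, 711 and 802 CPM in untreated KO libraries, at -0.18 ± 0.07 (adjusted p = 0.167). HIST1H4C differed by -0.13 ± 0.07 (adjusted p = 0.31), with 214, 207 and 240 CPM in treated KO, against 233, 240 and 252 CPM in untreated KO libraries. HIST1H2BK had 205, 191 and 214 CPM in treated KO, against 192, 188 and 233 CPM in untreated KO libraries, at -0.01 ± 0.10 (adjusted p = 0.967). The 2 groups overlapped in HIST1H4H, HIST1H4C and HIST1H2BK alike. HIST1H1C differed by 0.06 ± 0.09, HIST1H2AL by -0.14 ± 0.08, HIST2H2BF by 0.04 ± 0.07 and HIST1H3J by -0.16 ± 0.08, none past the threshold.

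**Figure D4:**
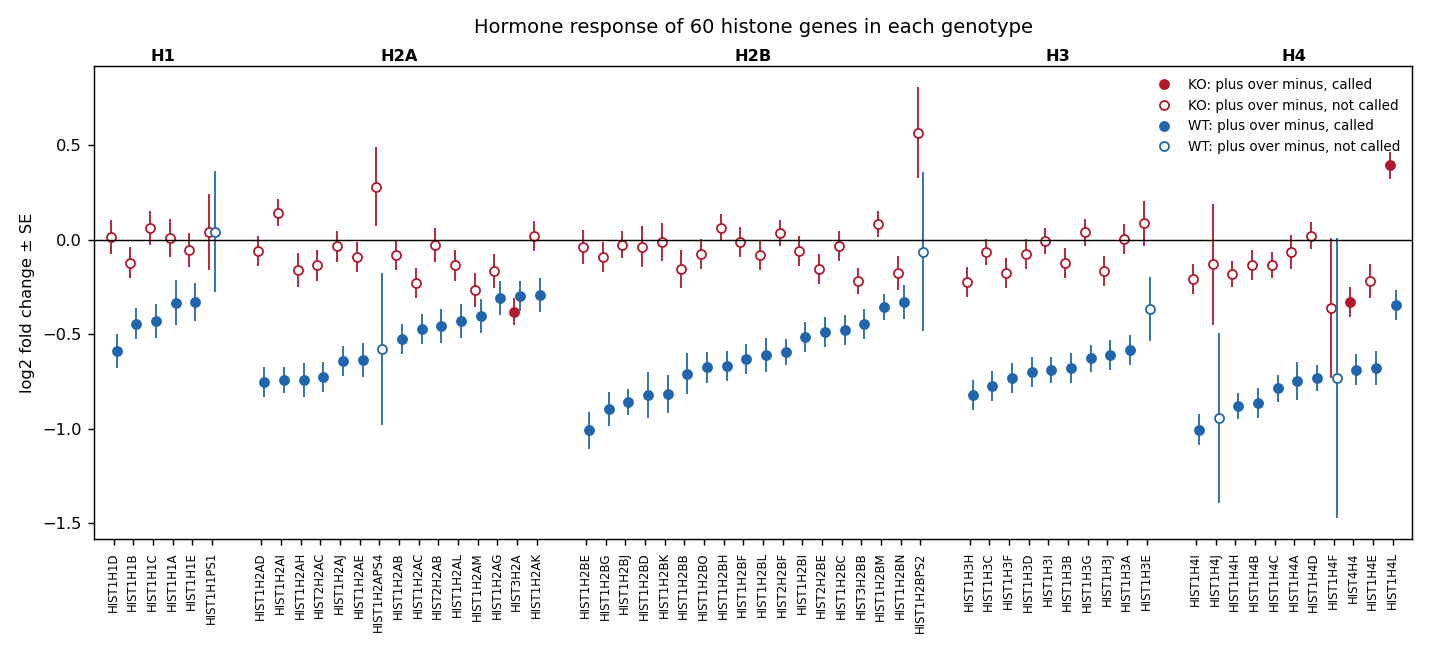
Log2 fold change with the hormone (treated over untreated, with SE) of the 60 tested histone genes that did not jump between replicates, in KO cells and in WT cells, grouped by class, with filled points for genes that passed the test (called). In WT cells 54 passed, all below 0, while KO values run from -0.38 to 0.57 with a median slightly below 0 (-0.07).

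The 2 responses were compared directly by the interaction term, the response in KO cells minus that in WT cells. It passed as positive for 45 of 66 histone genes and as negative for 0, where 13.8% of all genes were positive and 12.5% negative. Among the 60 that kept steady between replicates, 44 passed. At an unadjusted p under 0.05, 51 were positive and 0 negative, and DESeq2 gave 49 and 0, limma 44 and 0. The median was 0.59 over the histone genes and -0.011 over all genes. By class, 3 of 6 H1 genes passed (median 0.33), 8 of 17 H2A (0.45), 15 of 18 H2B (0.61), 9 of 13 H3 (0.60) and 10 of 12 H4 (0.72). Among genes that kept steady between replicates, HIST1H2BE at 0.97 ± 0.13 (adjusted p = 0.000146) and HIST1H2AI at 0.89 ± 0.10 (adjusted p = 5.62e-05) had the highest values. HIST1H2BJ followed at 0.83 ± 0.10, HIST1H2BK at 0.81 ± 0.14, HIST1H4H at 0.70 ± 0.10 and HIST1H4C at 0.65 ± 0.10, with adjusted p of 6.38e-05, 0.000859, 0.000274 and 0.00045. For HIST1H2AL (0.30 ± 0.12, adjusted p = 0.0783), HIST1H2AG (0.14 ± 0.13, adjusted p = 0.475), HIST1H1E (0.27 ± 0.13, adjusted p = 0.143) and HIST3H2A (-0.08 ± 0.11, adjusted p = 0.594) the difference did not pass. The result for HIST1H2AL depended on replicate 3 of untreated WT, without which it was 0.38 (adjusted p = 0.00205).

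The histone genes differed between genotypes before any hormone. Of 66 tested, 61 passed as higher and 0 as lower in untreated KO than in untreated WT cells, or 92.4%, where 35.5% of all genes were higher and 34.2% lower. Of the 60 that kept steady between replicates, 59 were higher. The median log2 fold change was 0.79 over the histone genes and 0.01 over all genes. At an unadjusted p under 0.05, 61 were higher and 0 lower, DESeq2 gave 58 higher and 1 lower, and limma 60 higher and 0 lower. The 1 lower gene was HIST2H4A, a row that jumped between replicates, which was also lower without replicate 3 of untreated WT (-5.65, adjusted p = 0.0464). In 61 genes every KO library lay above every WT library, which held for 35.7% of all genes, and in 0 below, against 33.5% of all genes.

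Summed counts were 17868, 17557 and 18549 CPM in untreated KO, against 11490, 11372 and 9968 CPM in untreated WT libraries, a ratio of 1.64. Without TMM scaling, histone counts were 1.85 to 1.93% of all counts in untreated KO and 0.974 to 1.09% in untreated WT libraries, a wider gap. The ratio of summed CPM, with TMM scaling, was 1.79 for H1, 1.63 for H2A, 1.76 for H2B, 1.65 for H3 and 1.5 for H4. All 6 H1 genes were higher in KO cells (median 1.46), as were 15 of 17 H2A genes (0.81), 18 of 18 H2B (0.87), 11 of 13 H3 (0.77) and 11 of 12 H4 (0.63). The H1 median includes the pseudogene HIST1H1PS1, which averaged 0.875 CPM in untreated WT cells and had the highest difference of that class, 2.37. By cluster, 52 of 53 HIST1 genes (median 0.79), 6 of 10 HIST2 genes (0.71), both HIST3 genes and HIST4H4 were higher. The 4 HIST2 genes that did not pass, and 2 of the 6 that did, were rows that jumped between replicates. Of the 9 genes known for polyadenylated transcripts 8 were higher (median 0.52), and of the other steady genes 51 of 51 (median 0.84). Among the steady genes, those with a mean level above the median of 184 CPM had a median difference of 0.66, and those at or below it 1.12. This mean was taken over all 12 libraries, KO libraries included, and CPM are not per length.

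Several genes of low or middle level in WT cells stood out. HIST1H2BM had 235, 207 and 228 CPM in untreated KO, against 69.2, 72.1 and 65.2 CPM in untreated WT libraries, a difference of 1.70 ± 0.07 (log2, SE, adjusted p = 1.33e-11). HIST1H4A had 173, 190 and 194 CPM in untreated KO, against 50.7, 55.8 and 49.0 CPM in untreated WT libraries, at 1.84 ± 0.10 (adjusted p = 8.6e-11). The genotypes lay 3.25-fold and 3.58-fold apart in these 2 genes. HIST1H1D had 356, 313 and 345 CPM in untreated KO, against 101, 102 and 94.1 CPM in untreated WT libraries, at 1.77 ± 0.09 (adjusted p = 8.96e-11). HIST1H3I had 257, 280 and 262 CPM in untreated KO, against 102, 111 and 108 CPM in untreated WT libraries, at 1.31 ± 0.07 (adjusted p = 1.43e-10). HIST1H3E, an H3 gene with few counts in WT cells, had 23.1, 22.3 and 24.7 CPM in untreated KO, against 2.93, 4.02 and 4.82 CPM in untreated WT libraries. That was 5.94-fold, or 2.57 ± 0.14 (adjusted p = 1.92e-10). HIST1H1A, an H1 gene of low level, had 27.5, 27.6 and 33.3 CPM in untreated KO, against 7.59, 8.78 and 8.20 CPM in untreated WT libraries, at 1.85 ± 0.11 (adjusted p = 2.79e-10). Differences of 1.14 to 1.30 were found for HIST3H2A, HIST3H2BB, HIST1H2AB and HIST1H2BI. The pseudogene HIST1H2APS4 had 5.80, 5.48 and 6.91 CPM in untreated KO, against 1.12, 0.274 and 1.35 CPM in untreated WT libraries.

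The 3 genes followed throughout and the highest gene of each class ranged widely between the untreated genotypes. HIST1H4C had 233, 240 and 252 CPM in untreated KO, against 222, 217 and 197 CPM in untreated WT libraries, at 0.19 ± 0.07 (adjusted p = 0.0319). The groups lay side by side, and the call was lost without replicate 3 of untreated WT (adjusted p = 0.0886), replicate 2 of untreated KO (0.0558) or replicate 3 of untreated KO (0.117), and when the compared groups were fitted alone (0.0779). HIST1H2AC, an H2A gene, had 469, 469 and 469 CPM in untreated KO, against 465, 469 and 373 CPM in untreated WT libraries, and did not pass at 0.11 ± 0.08 (adjusted p = 0.266). HIST1H4H differed by 0.51 ± 0.07 (adjusted p = 9.13e-06), HIST1H2BK by 0.52 ± 0.10 (adjusted p = 0.000195) and HIST2H2BF by 0.53 ± 0.07 (adjusted p = 3.83e-06). HIST1H1C differed by 0.47 ± 0.09, HIST1H2AL by 0.85 ± 0.09 and HIST1H3J by 0.79 ± 0.08, all past the threshold.

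Between treated cells the gap was wider. Of 66 tested histone genes, 63 passed as higher and 0 as lower in treated KO than in treated WT cells, or 95.5%, where 38.4% of all genes were higher and 37.4% lower. Those 63 include all 60 that kept steady between replicates. The median was 1.42 over the histone genes and 0.024 over all genes. At an unadjusted p under 0.05, 63 were higher and 0 lower, DESeq2 gave 64 and 0, and limma 62 and 0. In 64 genes every KO library lay above every WT library, which held for 41.1% of all genes, and in 0 below, against 39.8% of all genes. Summed counts were 17334, 16897 and 17471 CPM in treated KO, against 7254, 7202 and 6755 CPM in treated WT libraries, a ratio of 2.44. The ratio was 2.38 for H1, 2.23 for H2A, 2.63 for H2B, 2.58 for H3 and 2.41 for H4. Without the rows that jumped between replicates, a choice made after seeing the data, it was 2.14 for H2A, 2.47 for H3 and 2.37 for H4. For all classes together it was then 2.38. This comparison uses the same treated libraries as the hormone comparisons above and is not independent of them.

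HIST1H2BM had 236, 241 and 235 CPM in treated KO, against 53.1, 57.0 and 51.2 CPM in treated WT libraries, at 2.14 ± 0.07 (log2, SE, adjusted p = 1.3e-12). HIST1H4A had 179, 163 and 191 CPM in treated KO, against 35.2, 26.3 and 31.2 CPM in treated WT libraries, at 2.52 ± 0.10 (adjusted p = 3.89e-12). The level in treated KO cells was 4.41-fold and 5.75-fold that in treated WT cells. HIST1H2BE had 118, 101 and 116 CPM in treated KO, against 25.2, 23.3 and 20.4 CPM in treated WT libraries, at 2.28 ± 0.10 (adjusted p = 5.31e-12). HIST1H3E had 27.2, 22.7 and 24.6 CPM in treated KO, against 3.08, 3.28 and 2.78 CPM in treated WT libraries, at 3.03 ± 0.15 (adjusted p = 2.82e-11). HIST1H1D differed by 2.37 ± 0.10 and HIST1H3I by 2.00 ± 0.07. HIST1H4H differed by 1.21 ± 0.07 (adjusted p = 2.87e-10), HIST1H2BK by 1.33 ± 0.10 (adjusted p = 4.44e-09) and HIST1H4C by 0.84 ± 0.07 (adjusted p = 2.25e-08). HIST1H2AC, which did not pass between untreated cells, had 407, 391 and 404 CPM in treated KO, against 316, 331 and 295 CPM in treated WT libraries, at 0.35 ± 0.08 (adjusted p = 0.00122).

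**Figure D5:**
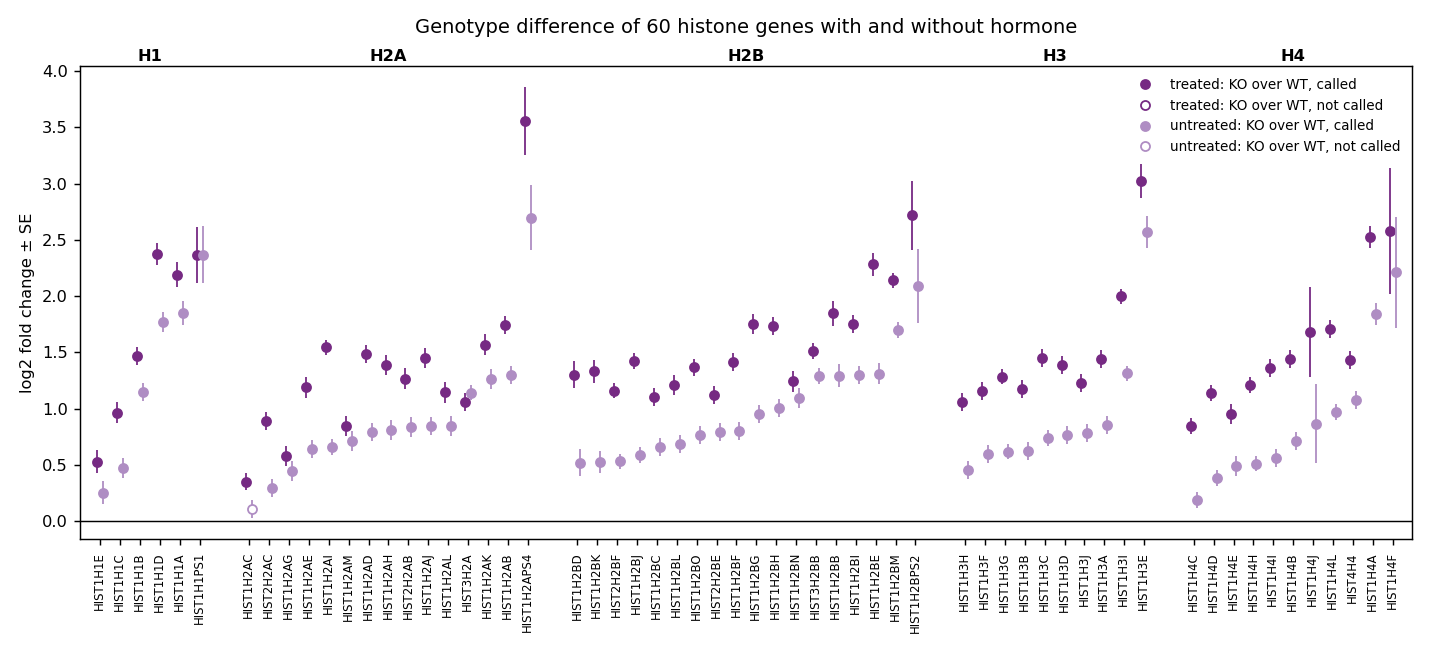
Log2 fold change of KO over WT cells (with SE) for the 60 tested histone genes that did not jump between replicates, in treated and in untreated cells, grouped by class. Values of the treated cells (median 1.42 over the 66 tested genes) lie above those of the untreated cells (median 0.79) in most genes, and filled points passed the test.

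H2A and H2B genes often stand head to head and share the stretch between their starts, so pairs were set side by side. Distances here are between the GENCODE bounds of the genes, and starts in RefSeq lie elsewhere for some pairs, such as the first. HIST1H2BJ and HIST1H2AG lie 292 bases apart. With the hormone in WT cells HIST1H2BJ changed by -0.86 ± 0.07 and HIST1H2AG by -0.30 ± 0.09. HIST1H2AG had 223, 242 and 230 CPM in treated WT, against 309, 310 and 240 CPM in untreated WT libraries, where the third untreated library lay within the treated range. In treated KO against treated WT cells the same pair differed by 1.42 ± 0.07 and 0.58 ± 0.09. HIST1H2AJ and HIST1H2BM lie 304 bases apart and differed by 0.84 and 1.70 between untreated KO and untreated WT cells. HIST1H2BC and HIST1H2AC lie 219 bases apart and both changed by -0.47 with the hormone in WT cells. Between untreated genotypes HIST1H2BC differed by 0.65 and HIST1H2AC by 0.11. HIST1H2AD and HIST1H2BF, 277 bases apart, had close values, at -0.75 and -0.63 with the hormone in WT cells and 0.79 and 0.80 between untreated genotypes. Of the 50-base stretches, 2.03% were unique in HIST1H2AD and 16.3% in HIST1H2AJ, so the changes of these rows may be those of other copies. Differences within a pair were not tested.

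The machinery that makes histone mRNA was read from lists of genes, with counts of those that passed. NPAT, the coactivator of histone gene transcription, had 178, 192 and 171 CPM in treated KO, 130, 142 and 151 CPM in untreated KO, 81.8, 83.5 and 75.0 CPM in treated WT, and 92.8, 90.1 and 107 CPM in untreated WT libraries. It was higher in KO than in WT cells, by 1.17 ± 0.08 when treated (adjusted p = 1.87e-09) and by 0.54 ± 0.08 when untreated (adjusted p = 1.87e-05). With the hormone it changed by 0.35 ± 0.08 in KO cells (adjusted p = 0.0371) and by -0.27 ± 0.08 in WT cells (adjusted p = 0.0276), and the difference between these was 0.62 ± 0.12 (adjusted p = 0.00129). The call in KO cells was lost without any 1 library of treated KO or without replicate 1 or 2 of untreated KO. Of the 18 tested regulators of histone gene transcription, 6 were higher and 3 lower in untreated KO than in untreated WT cells (median 0.04), or 33.3% and 16.7%, against 35.5% and 34.2% of all genes. POU2F1, which binds the octamer, was among the higher ones at 1.02 ± 0.11 (adjusted p = 3.39e-07). Among steady H2A and H2B genes, the median in this comparison was 0.78 for 18 with an octamer match and 1.09 for 7 without. Between treated genotypes it was 1.30 in both, and a part of the octamer was not tested. In treated against untreated WT cells 4 of the 18 regulators were higher, with EP300 at 0.46 and E2F1 at 0.38, and 3 were lower. That was 22.2% and 16.7%, against 11.5% and 13% of all genes. Of those 3, NPAT among them, 1 was lower without replicate 3 of untreated WT or replicate 1 of treated WT. Without replicate 3 of treated WT 0 were lower, so the call of NPAT in WT cells was lost there too.

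SLBP, the stem-loop binding protein, had 93.9, 90.6 and 97.3 CPM in treated KO, 93.6, 104 and 90.1 CPM in untreated KO, 112, 113 and 115 CPM in treated WT, and 133, 131 and 124 CPM in untreated WT libraries. It was lower in untreated KO than in untreated WT cells at -0.43 ± 0.07 (adjusted p = 3.3e-05), opposite in sign to the histone genes. With the hormone in WT cells it differed by -0.19 ± 0.07 (adjusted p = 0.0572). CASP8AP2, a factor of histone mRNA 3′ processing, was higher in untreated KO than in untreated WT cells at 0.65 ± 0.07 (adjusted p = 1.59e-07) and differed by 0.09 ± 0.07 with the hormone in WT cells (adjusted p = 0.327). Of 28 tested genes of histone mRNA 3′ end processing and decay, 11 were higher and 8 lower in untreated KO than in untreated WT cells (median 0.12), or 39.3% and 28.6%, near the 35.5% and 34.2% of all genes. UPF1, a helicase in the decay of histone mRNA, was among the lower ones at -0.83 ± 0.08. With the hormone in WT cells 1 rose and 7 fell (median -0.14), against 11.5% and 13% of all genes, but 4 fell without replicate 2 of treated WT and 2 without replicate 3 of treated WT, and 3 and 2 rose without replicates 2 and 3 of untreated WT.

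Of 23 tested histone chaperones and deposition factors, 8 were higher and 10 lower in untreated KO than in untreated WT cells (median 0.03), or 34.8% and 43.5%, against 35.5% and 34.2% of all genes. ANP32E, a chaperone of the variant H2A.Z, was higher at 1.32 ± 0.07, ASF1A at 1.12 ± 0.09 and NASP, which binds H3 and H1, at 0.61 ± 0.09. HAT1, which acetylates new H4, had 63.8, 63.8 and 61.0 CPM in treated WT, against 93.3, 94.8 and 105 CPM in untreated WT libraries, at -0.64 ± 0.08 (adjusted p = 0.000103). In KO cells HAT1 differed by 0.27 ± 0.08 with the hormone (adjusted p = 0.0779). With the hormone in WT cells 1 of the 23 genes rose and 2 fell, HAT1 among them (median -0.12). That was 4.35% and 8.7%, against 11.5% and 13% of all genes. Without replicate 1 of untreated WT or any 1 library of treated WT, 1 fell. Without replicate 1 or 2 of untreated WT, 2 rose. Of 11 tested histone variants listed as replication-independent, 2 were higher and 3 lower in untreated KO than in untreated WT cells (6 lower without replicate 3 of untreated WT). That was 18.2% and 27.3%, against the same 35.5% and 34.2%. H2AFZ, which encodes H2A.Z, was higher at 0.47 ± 0.10 and H3F3B, which encodes H3.3, lower at -0.93 ± 0.10. With the hormone in KO cells 4 of the variants fell, where 1.64% of all genes did, among them H1FX at -0.70 ± 0.12 (adjusted p = 0.00815) and H1F0 at -0.63 ± 0.13 (adjusted p = 0.0261). That count was 0 without replicate 1 of untreated KO or replicate 2 of treated KO, and 1 without replicate 3 of untreated KO or replicate 1 or 3 of treated KO.

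Cell cycle genes were set beside the histone genes in the same libraries. Of 40 S phase genes, 20 were higher and 11 lower in untreated KO than in untreated WT cells (median 0.22), or 50% and 27.5%, against 35.5% and 34.2% of all genes. Between treated cells 26 were higher and 11 lower (median 0.45), or 65% and 27.5%, against 38.4% and 37.4% of all genes. Of 30 G2/M genes, 29 were higher and 0 lower between untreated cells (median 0.83), or 96.7% higher, and 27 and 0 between treated cells (median 1.01), or 90% higher, read against the same shares of all genes. With the hormone in WT cells 3 S phase genes rose and 15 fell (median -0.18), or 7.5% and 37.5% against 11.5% and 13% of all genes, and 7 fell without replicate 3 of treated WT. Of the G2/M genes 1 rose and 5 fell (median -0.04), or 3.33% and 16.7%, with 2 that rose without replicate 1 of untreated WT, and 3 that fell without replicate 3 of untreated WT or any 1 treated WT library. Their summed levels were 4792 to 4832 CPM in treated and 5118 to 5461 CPM in untreated WT libraries for S phase, and 2973 to 3055 CPM in treated and 2858 to 3137 CPM in untreated WT libraries for G2/M. Over the same libraries the histone sum fell by 35.4%, and the part of cell cycle position in it was not tested. Of the 12 keratinocyte markers, 1 was higher and 10 lower in untreated KO than in untreated WT cells (median -1.40), and of the 5 tested markers of other cell types 0 were higher and 2 lower.

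Histone genes also appear in the authors' gene ontology results. For genes lower in treated than in untreated WT cells, the authors' deposited table lists 23 genes of the term nucleosome assembly among 840, with an adjusted p of 0.000209, and 16 of the 23 are histone genes of the set described here. For genes higher in untreated KO than in untreated WT cells, the authors' deposited table lists 48 of 3062 in that term, 18 of them histone genes of the set, with an adjusted p of 0.000157. For treated KO against treated WT cells, the authors' deposited table lists 56 of 3915, 21 of them histone genes of the set, with an adjusted p of 0.000123. The number of genes in these tables is not comparable with the counts above, since the criteria behind the authors' gene lists are not stated in those tables.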

How the data were processed

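Total RNA of 12 HaCaT libraries was sequenced, and samples were grouped as the labels group them. The authors deposited raw counts per gene and library and CPM (counts per 1e6 counts), which match division by the column totals to within 0.005. Their deposited enrichment tables hold a p-value, an adjusted p-value and, as other values, the number of listed genes per term (Count), per the file headers. BWA 0.5.9 is named in the submitters' processing notes, as is the build mm9, although the gene IDs are human. Annotation, counting tool, strandedness and RNA selection: not given in the sources used here. Antisense and overlapping genes and near-identical copies cannot be told apart in such counts.

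Counts were analysed in R 4.3.3 with edgeR 4.0.16: filterByExpr left 14676 genes and set aside 1595, and 1 model of the 4 groups with TMM scaling and robust quasi-likelihood was fitted to all 12 libraries, with Benjamini-Hochberg adjusted p under 0.05 as the threshold and no minimum fold. Standard errors are the log2 fold change divided by the root of F. CPM in the text use TMM-scaled library sizes and are not per length, so gene length also enters wherever genes are ranked or split by level. Comparisons share libraries. Alternatives were DESeq2 1.42.0, limma 3.58.1 on log2(deposited CPM + 1), other scalings, filters, thresholds and sample sets, a replicate block and leaving out each library. The scripts were tested on simulated data. Gene positions come from GENCODE v29 (36 histone genes matched by ID, 35 by symbol only). Stem-loops and promoters were read from GENCODE and RefSeq. Members, gene lists and tests were chosen with earlier results of these data known. Genes with full statistics were HIST1H4C, HIST1H4H, HIST1H2BK, up to 10 per direction with the smallest adjusted p, and the highest in mean CPM per class; others named were chosen after their values were seen. The lists cover histone mRNA 3′ end processing, histone gene transcription, histone chaperones, replication-independent variants, S phase, G2/M, keratinocyte markers, markers of other cell types and histone genes known for polyadenylated transcripts.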

Additional observations from a re-analysis of the deposited data

Results flagged for a closer look

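The hormone response differed between KO and WT cells, by the test of the difference itself (edgeR's quasi-likelihood interaction term, adjusted p under 0.05), for 45 of the 66 tested histone genes, all with a higher value in KO cells. The difference, as the log2 response in KO cells minus that in WT cells, was 0.97 for HIST1H2BE, 0.89 for HIST1H2AI, 0.83 for HIST1H2BJ, 0.81 for HIST1H2BK, 0.80 for HIST1H2BG and 0.80 for HIST1H4I. It was 0.75 for HIST1H4D, 0.74 for HIST1H4L, 0.73 for HIST1H2BH, 0.70 for HIST1H4H and 0.68 for HIST1H3I. It was 0.65 for HIST1H4C, 0.63 for HIST2H2BF, 0.49 for HIST1H1C and 0.44 for HIST1H3J. HIST1H4L was the gene of these that passed the test in opposite directions in the 2 genotypes, higher with the hormone in KO cells and lower in WT cells.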

How the results depend on the processing

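The counts of histone genes that passed kept their direction under every alternative run, except for the single row HIST2H4A between untreated genotypes (-5.15 with DESeq2 and -5.65 without replicate 3 of untreated WT) and for the few calls with the hormone in KO cells. With the hormone in KO cells the count of 3 became 7 with DESeq2 (4 higher, of them HIST2H2AA4, HIST2H3A and HIST2H4A among the rows that jumped between replicates, and 3 lower), 7 when the compared groups were fitted alone (1 higher, 6 lower), 0 at adjusted p under 0.01 and 0 with a minimum of 1.5-fold. That minimum left 34 in WT cells and 28 for the difference of responses. With 1 library left out, the counts were 48 to 53 with the hormone in WT cells, 0 to 3 in KO cells, 57 to 61 between untreated genotypes, 62 to 63 between treated genotypes and 39 to 51 for the difference of responses. Replicate numbers do not pair the libraries (correlations of same-numbered libraries -0.18 to 0.12), and with the replicate block these counts were 53, 2, 58, 63 and 44, with the call of HIST4H4 in KO cells lost (adjusted p = 0.0695). Without the rows that jumped between replicates, added after seeing the data, they were 54, 3, 59, 60 and 44. Scaling by library size alone shifted all genes by 0.12 (log2) between untreated and 0.11 between treated genotypes, and histone differences there are relative to that shift. Depth of 11.49 to 15.99 M counts leaves genes near 1 CPM, such as HIST1H4F and HIST1H4J, with wide errors, and 3 libraries per group allow no permutation p below 0.1.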
